A study of Sus scrofa with 55 samples.

Results

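The set consisted of 9 genes of cumulus expansion and of gap junctions, HAS2, PTX3, TNFAIP6, PTGS2, VCAN, SERPINE2, GJA1, GJA4 and GJC1. They were chosen by symbol, and all 9 were found among the 25880 Ensembl gene IDs of the pig count table. The table held 55 Smart-seq2 libraries, each from the cytoplasmic RNA of 1 oocyte, out of the 62 oocytes that the study's design names. The oocytes came from the ovaries of 4 pubertal gilts (young sows) labelled Landrace Yorkshire and wild type, aged 208 to 210 days and named 201, 205, 801 and 803. PMSG, a gonadotropin prepared from the serum of pregnant mares that drives antral follicle growth, had been given to every gilt at a dose of 5 IU and 48 h before the ovaries were taken, so no group was free of it. The groups were 5 antral follicle stages, numbered 1 to 5 in the labels, with 11, 12, 11, 11 and 10 oocytes. The labels give no follicle size for a stage and no other agent. Gilts 201, 205, 801 and 803 gave 14, 9, 12 and 20 oocytes, and gilt 801 gave none at stage 5.

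Cumulus cells are the granulosa cells that surround the oocyte. They are joined to one another and to the oocyte by gap junctions, channels of connexin proteins that pass small molecules such as cyclic nucleotides. After the ovulatory signal, cumulus cells lay down a hyaluronan matrix and the cumulus expands, and the channels between them close. The expansion genes are therefore known as genes of cumulus and granulosa cells, whereas the connexin genes are used in both the oocyte and the cells around it.

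The libraries held 151104 to 38282850 counts, with a median of 12139540. Transcripts of the 13 mitochondrially encoded proteins made up 2.1% to 91.8% of a library. ZP3 and GDF9, the genes of a zona pellucida protein and of an oocyte growth factor, were counted in 55 of 55 libraries, and granulosa markers were counted as well. In 11 libraries the summed level of the granulosa and cumulus marker list, in counts per 1000000 counts of the library (CPM), exceeded that of the oocyte gene list. ZP3 and GDF9 are themselves on the oocyte gene list and so enter this comparison. These 11 libraries are called granulosa-rich below. Of them 10 came from gilt 803 and 1 from gilt 801, and stages 1 to 5 held 2, 1, 2, 4 and 2 of them. Of 19 granulosa markers 17 were in the table, AMH was at 0 in every library, and CYP19A1 and FOXL2 were not matched by symbol. The summed granulosa marker level ranged from 75.8 to 11885 CPM in gilt 803 (median 3057 CPM) and had medians of 108, 102 and 592 CPM in gilts 201, 205 and 801. The medians of the summed oocyte gene level were 13228, 22543, 25302 and 2214 CPM in gilts 201, 205, 801 and 803. For every member below, more transcripts from other cells and more RNA per cell cannot be told apart in such libraries.

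The genes of the hyaluronan matrix differed in how many oocyte libraries held them. HAS2 encodes a hyaluronan synthase. It had counts in 23 of 55 libraries, and its level ran from 0 CPM through a median of 0 CPM to 698 CPM. Most HAS2 counts lay in gilt 803: 13 of its 20 libraries had counts, with a lowest level of 0, a median of 5.93 and a highest of 698 CPM. The highest level was 18.4 CPM in gilt 201, 0.94 CPM in gilt 205 and 0.70 CPM in gilt 801. Thus 9 of the 11 libraries at 10 CPM or more belonged to gilt 803, and the other 2 to gilt 201, where no library was granulosa-rich. Of these, oocyte 1 at stage 1 (18.4 CPM) still had 4286 CPM of summed granulosa markers beside 6678 CPM of oocyte genes. Oocyte 2 at stage 5 (14.3 CPM) had 24.7 CPM of granulosa markers beside 4064 CPM of oocyte genes.

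VCAN encodes versican, a proteoglycan that binds hyaluronan. It was counted in 54 of 55 libraries, with a median of 16.0 CPM and a highest level of 1373 CPM. The lowest, median and highest VCAN levels were 0.27, 15.9 and 714 CPM at stage 1 and 0.31, 19.6 and 123 CPM at stage 5. At stage 3 they were 0, 2.80 and 1373 CPM. The stages overlapped over most of their range, and both libraries above 1000 CPM came from gilt 803.

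TNFAIP6 encodes a protein that helps to transfer heavy chains onto hyaluronan, and PTX3 encodes a pentraxin that cross-links the matrix. TNFAIP6 had counts in 13 libraries, and 38322 of its 38768 counts came from 1 library, oocyte 2 of gilt 803 at stage 3, at 1463 CPM. The next highest TNFAIP6 level was 11.6 CPM, and 42 libraries were at 0. PTX3 had counts in 14 libraries, and 1104 of its 1501 counts came from oocyte 1 of gilt 201 at stage 1, at 107 CPM. Only 1 library reached 10 CPM of PTX3, so each of the 2 genes was close to a single-library measurement.

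PTGS2 encodes the inducible cyclooxygenase that makes the precursor of prostaglandin E2. It had counts in 31 libraries, 15 of them with 1 to 3 counts, and its median was 0.055 CPM. Of 4481 PTGS2 counts 3467 came from oocyte 2 of gilt 803 at stage 5, at 408 CPM. The other libraries ranged from 0 to 29.1 CPM.

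The libraries with the top levels of the expansion genes were not the same ones. Oocyte 2 of gilt 803 at stage 3 had the highest HAS2 (698 CPM), TNFAIP6 (1463 CPM) and VCAN (1373 CPM), yet PTX3 was at 0 and PTGS2 at 0.038 CPM, which was 1 count. Oocyte 2 of gilt 803 at stage 5, the highest in PTGS2, had 23.5 CPM of HAS2, 0.47 CPM of TNFAIP6 and 0 CPM of PTX3. Oocyte 1 of gilt 201 at stage 1, the highest in PTX3, had 24.8 CPM of PTGS2, 18.4 CPM of HAS2 and 0.097 CPM of TNFAIP6. Both libraries of gilt 803 were granulosa-rich, with summed granulosa markers of 11885 and 6085 CPM against oocyte genes of 298 and 804 CPM. The library of gilt 201 was not, at 4286 CPM of granulosa markers against 6678 CPM of oocyte genes. What part transcripts of other cells had in these top levels was not tested. Over the 55 libraries Spearman's rank correlation was 0.34 between HAS2 and TNFAIP6, 0.15 between HAS2 and PTGS2 and -0.06 between HAS2 and PTX3. These coefficients are descriptions over libraries that share gilts and differ in depth.

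SERPINE2 encodes protease nexin-1, a secreted inhibitor of serine proteases such as thrombin and the plasminogen activators, and it was the member found in every library. Its level ran from 0.076 CPM (1 count) through a median of 46.6 CPM to 13719 CPM. The lowest, median and highest levels were 7.59, 1034 and 13719 CPM in gilt 803, 0.076, 19.8 and 601 CPM in gilt 201, 0.89, 19.1 and 887 CPM in gilt 205, and 0.98, 46.2 and 5599 CPM in gilt 801. The gilts overlapped, and the gilt 803 median lay above the highest library of gilts 201 and 205. Of the 12 libraries at 1000 CPM or more, 10 were from gilt 803 and the other two from gilt 801. By stage the SERPINE2 medians were 45.4, 38.4, 59.5, 287 and 174 CPM, and the range of every stage contained the medians of the others.

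**Figure D1:**
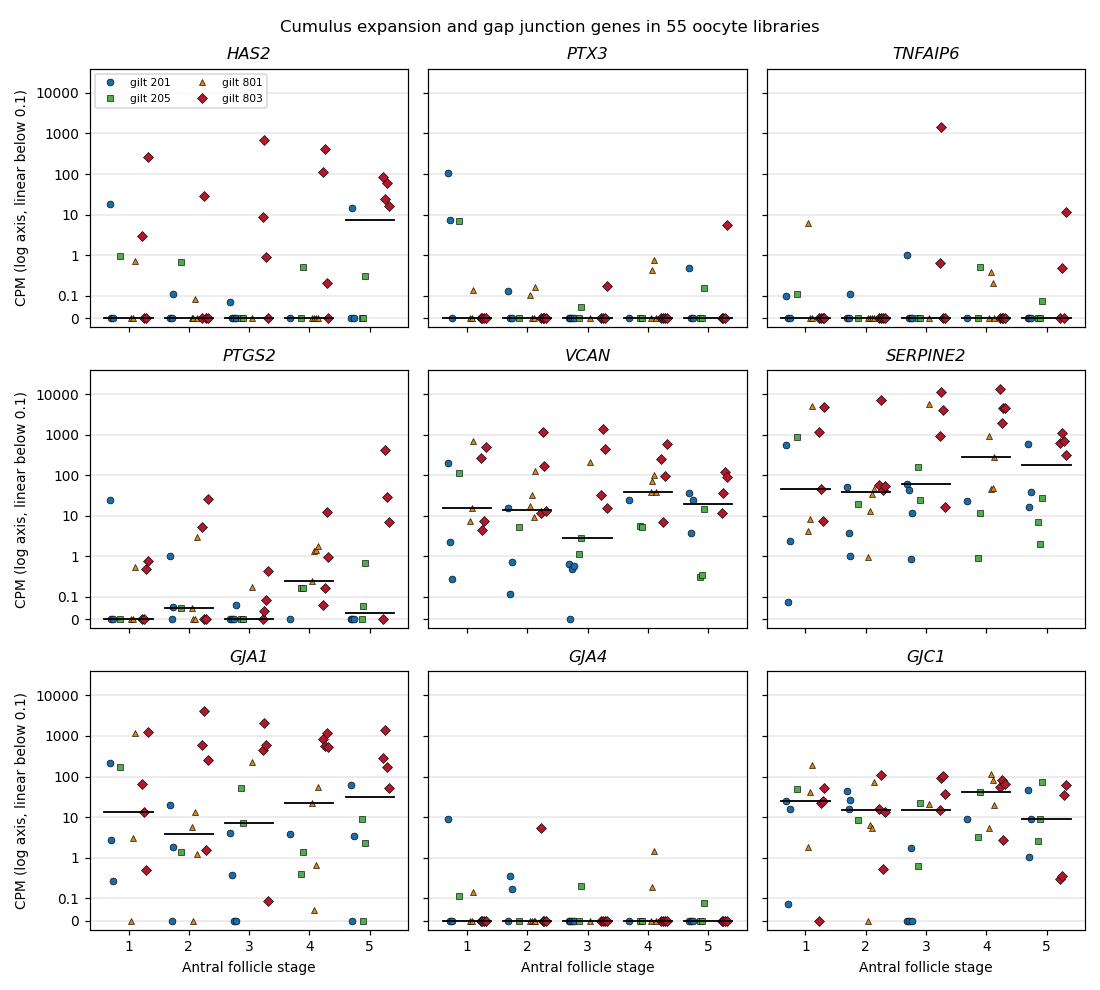
CPM of the 9 members in each of 55 oocyte libraries (log axis, linear below 0.1) by antral follicle stage, with colour and marker giving the gilt and a black bar giving the stage median. Red diamonds of gilt 803 hold the top of HAS2, VCAN, SERPINE2 and GJA1 in most stages, GJC1 overlaps between all gilts, and GJA4 has counts in 10 libraries.

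Among the connexins, GJA1, which encodes connexin 43, the main channel protein between cumulus and granulosa cells, was counted in 48 of 55 libraries. Its level ran from 0 CPM through a median of 8.89 CPM to 4226 CPM. In gilt 803 the lowest, median and highest GJA1 levels were 0.087, 489 and 4226 CPM, and 17 of its 20 libraries had 10 CPM or more. In the other gilts the medians were 2.31, 2.29 and 4.43 CPM, with highest levels of 211, 169 and 1201 CPM in gilts 201, 205 and 801. The highest libraries of those gilts thus lay within the range of gilt 803. By stage the GJA1 medians were 13.6, 3.85, 7.05, 21.8 and 30.5 CPM, and all 5 stages held libraries below 1 CPM and above 1000 CPM.

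GJA4 encodes connexin 37, known as the connexin of the oocyte side of the oocyte's own gap junctions in the mouse. It was the scarcest member, with 173 counts over all 55 libraries and counts in 10 of them. Its highest level was 8.75 CPM (90 counts) in oocyte 1 of gilt 201 at stage 1. In the 45 libraries at 0, a count of 0 allows up to 3 counts, which is 0.098 CPM in the deepest of them and 19.9 CPM in the shallowest, so a low level was not detectable in a shallow library. Such limits cover counting error only, since the reads carry no molecular identifiers. Every stage median and every gilt median of GJA4 was 0.

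GJC1 encodes connexin 45 and was counted in 50 of 55 libraries. Its lowest, median and highest levels were 0, 16.3 and 187 CPM. The gilt medians were 9.05, 8.80, 20.8 and 29.6 CPM for gilts 201, 205, 801 and 803, and the stage medians were 24.3, 14.7, 15.0, 41.2 and 8.89 CPM. All of these groups overlapped. Gilt 803 held 38.1% of all GJC1 counts, against 88.5% of the GJA1 counts.

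Levels of different genes can be set against each other only per gene length, for which the authors' length-scaled values were used within a library. On that scale GJA1 was above GJC1 in 37 of 55 libraries, GJC1 was above GJA1 in 17, and both were at 0 in 1. GJC1 was the higher of the 2 in 5 of 14 libraries of gilt 201, 4 of 9 of gilt 205, 6 of 12 of gilt 801 and 2 of 20 of gilt 803. GJA4 exceeded GJA1 in 3 libraries and GJC1 in 2. The order depends on the scale, since by CPM GJA1 was above GJC1 in 30 libraries and GJC1 above GJA1 in 24. In 19 libraries with more than 50 counts of both genes, going from CPM to the length-scaled value raised GJA1 relative to GJC1 by 1.94 to 10.4 times (median 8.85 times). A fixed gene length would give the same factor in every library. GJC1 also had a length-scaled value of 0.075 at a count of 0 in oocyte 1 of gilt 803 at stage 1. The 2 scales thus differ by more than a fixed length.

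**Figure D2:**
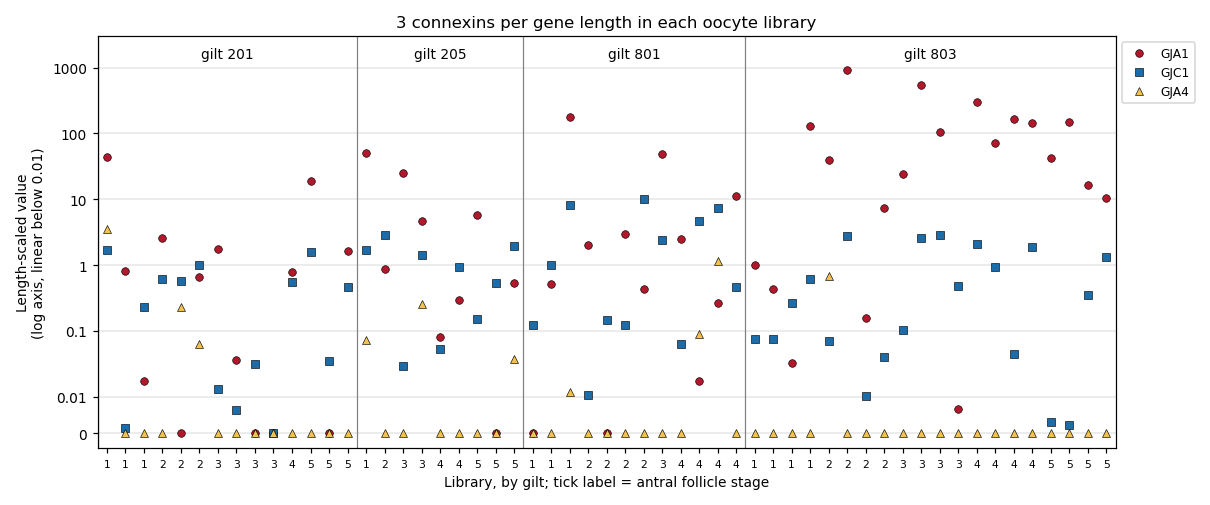
The authors' length-scaled value of GJA1, GJC1 and GJA4 in each oocyte library (log axis, linear below 0.01), ordered by gilt and, within a gilt, by antral follicle stage (tick labels). GJA1 is the highest of the 3 in 18 of 20 libraries of gilt 803, whereas GJC1 exceeds it in 15 of the 35 libraries of the other gilts.

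To compare stages, the oocytes that a gilt gave at a stage were pooled by adding their counts, which gave 19 sums, and these were tested with edgeR's quasi-likelihood test with stage and gilt as terms. None of the 9 members passed an adjusted p of 0.05 for a steady trend over stages 1 to 5, where 0.0128% of the 15637 genes tested did. None passed for any difference among stages (0% of all genes) or for stage 5 against stage 1 (0%). At an unadjusted p under 0.05 the members counted 0 for the trend, 2 for any stage (GJA1 at p = 0.01053 and PTX3 at p = 0.01315, both with an adjusted p of 0.8202 by edgeR) and 0 for stage 5 against stage 1, beside 900, 840 and 840 of all genes. DESeq2 called 0 members in each of these 3 comparisons as well. With no filter on low counts, edgeR's test for any stage called 3 members, TNFAIP6 (adjusted p = 0.001678), SERPINE2 (0.006479) and GJA1 (0.006655), among 216 of 23035 genes, and the adjusted p of each reached 0.9999 in another of the alternatives run.

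For GJA1 the sums of gilts 201, 205 and 801 were 71.8, 169 and 210 CPM at stage 1 and 4.35, 1.34 and 4.21 CPM at stage 2. Those of gilt 803 were 481 and 2964 CPM at the same stages, so it went the other way. The fitted trend of GJA1 was -0.48 ± 0.26 (SE) log2 per stage with an edgeR adjusted p of 0.922, and stage 5 against stage 1 gave -2.14 ± 1.16 with an adjusted p of 0.9302. Without gilt 803 the test for any stage called GJA1 at an edgeR adjusted p of 0.03502, within a range of 0.006655 to 0.9999 over the 13 alternatives run. With all gilts the edgeR adjusted p was 0.8202, and the gilt left out was the one that went the other way. The share of all genes called in the fit without gilt 803 is not given here. Each high stage 1 sum in the other gilts rested on 1 library, with 211 CPM of GJA1 in gilt 201, 169 CPM in gilt 205 and 1201 CPM in gilt 801. Those 3 libraries also had the highest summed granulosa markers of stage 1 in these gilts, 4286, 3153 and 5692 CPM, against 25.2 to 134 CPM in the 4 others. The part of granulosa transcripts in this difference was not tested.

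For the other members the spread between gilts was wide at each stage. VCAN sums averaged 128 ± 55.9 CPM (SD, n = 4 gilts) at stage 1 and 30.4 ± 32.2 CPM (SD, n = 3) at stage 5, and its fitted trend was -0.38 ± 0.21 (SE) log2 per stage with an edgeR adjusted p of 0.922. HAS2 sums averaged 26.5 ± 48.3 CPM at stage 1 and 14.1 ± 19.8 CPM at stage 5, so the spread between gilts exceeded the means. The trends were -0.25 ± 0.34 for HAS2, -0.15 ± 0.30 for SERPINE2 and 0.60 ± 0.74 for PTGS2. GJC1 sums averaged 34.6 ± 16.0 CPM at stage 1 and 24.8 ± 7.84 CPM at stage 5, and stage 5 against stage 1 was 0.31 ± 0.96 log2 for this gene. The median trend was -0.38 log2 per stage over the members and -0.06 over all genes. Of the members 8 of 9 were below 0, GJC1 at -0.0001, and 42.5% of all genes were above 0. The sums are shared by all members, so these directions are not separate observations. In simulated counts of this design the trend test found 46% of genes with a 16-fold total change over the stages. It found 3% of those with a 4-fold change, so a change of a few-fold was not detectable. The changes were given only to genes with a mean of at least 10 CPM, and the simulated gilts were alike apart from depth. These rates therefore do not cover scarcer members such as GJA4.

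**Figure D3:**
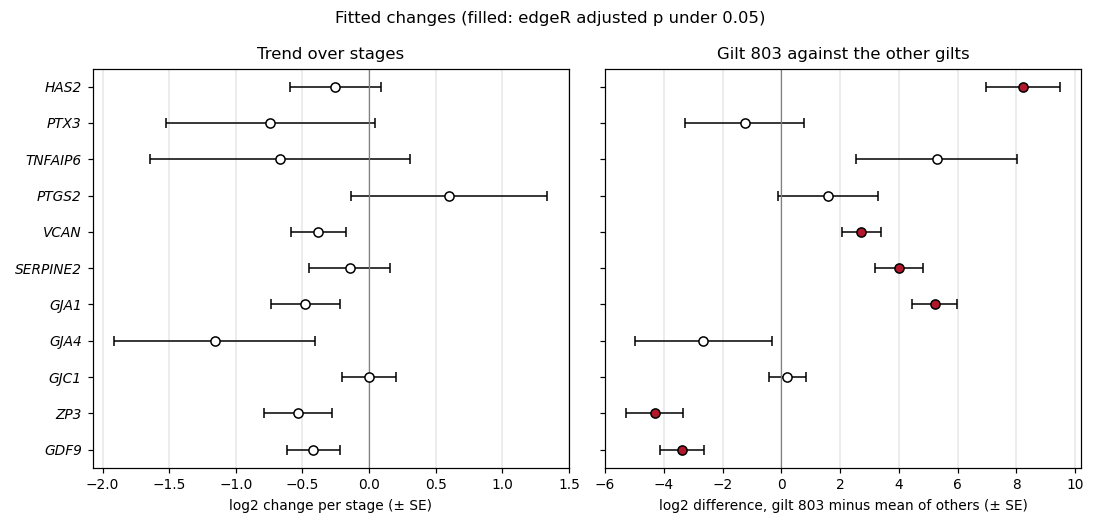
Fitted log2 changes with their standard errors for the 9 members, ZP3 and GDF9: change per stage (left) and gilt 803 minus the mean of the other 3 gilts (right), with filled points where edgeR's adjusted p is under 0.05. Each standard error is the size of the change divided by the square root of edgeR's F statistic. No trend is called, while HAS2, VCAN, SERPINE2 and GJA1 are called higher and ZP3 and GDF9 lower in gilt 803.

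More members were called between gilts than between stages. Of the 9 members, 4 passed for any difference among the 4 gilts, where 2.17% of all genes passed: GJA1 (edgeR adjusted p = 0.002253), HAS2 (0.003103), SERPINE2 (0.0182) and VCAN (0.0445). The VCAN call was the least firm, being kept in 8 of 17 alternatives (edgeR or DESeq2 adjusted p from 9.432e-05 to 0.7379) and lost with RLE in place of TMM scaling (edgeR adjusted p = 0.06112). The same 4 were higher in gilt 803 than in the mean of the other gilts, a contrast that was singled out with earlier results of these data known and in which 4.68% of all genes were called (4.4% higher and 0.281% lower). Each gilt is 1 animal, its stages were the repeats, and animal and collection cannot be told apart.

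The 5 stage sums of HAS2 in gilt 803 were 98.8, 19.8, 332, 111 and 36.7 CPM, and the 14 sums of the other gilts lay between 0 and 6.16 CPM. The groups did not overlap, and the fitted difference was 8.22 ± 1.25 (SE) log2 with an edgeR adjusted p of 0.0003231. The share of all genes whose sums separate in this way is not given here. The gilt 803 sums of stages 1, 2 and 3 rested almost wholly on 1 oocyte each, with 1042, 200 and 18281 HAS2 counts. The other gilt 803 oocytes had at most 1 count at stage 1, 0 at stage 2 and 55 at stage 3. GJA1 sums in gilt 803 were 481, 2964, 1153, 786 and 369 CPM against 0.87 to 222 CPM in the others, again without overlap, and the difference was 5.22 ± 0.77 log2 (adjusted p = 0.0003123). SERPINE2 sums in gilt 803 were 1840, 5024, 6441, 6398 and 577 CPM. Those of the other gilts ran from 6.30 to 5599 CPM, so the groups overlapped through gilt 801 at stage 3. The SERPINE2 difference was 4.00 ± 0.81 log2 (edgeR adjusted p = 0.003863). VCAN sums were 201, 820, 751, 256 and 66.3 CPM in gilt 803 and 0.48 to 213 CPM in the others, which overlap, with a difference of 2.72 ± 0.66 log2 (edgeR adjusted p = 0.01378).

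The remaining members did not pass in this contrast. TNFAIP6 was at 5.29 ± 2.75 (SE) log2 with an edgeR adjusted p of 0.3287 and rested on 1 library, PTGS2 was at 1.59 ± 1.69, PTX3 at -1.25 ± 2.02, and GJA4 at -2.65 ± 2.33. GJC1 was at 0.20 ± 0.64 with an edgeR adjusted p of 0.9172. Its sums in gilt 803 were 33.9, 77.9, 75.0, 50.0 and 33.1 CPM, inside the 0.37 to 72.6 CPM of the other gilts for 3 of the 5. Over the 9 members the median difference was 2.72 log2, and over all genes it was 0.11. The oocyte genes went the other way in gilt 803, with ZP3 at -4.30 ± 0.97 log2 (edgeR adjusted p = 0.008592) and GDF9 at -3.38 ± 0.74 log2 (adjusted p = 0.007304).

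Granulosa markers, the oocyte genes and the mitochondrial share moved with gilt 803, and the marker lists of other cell types were mixed. Over all genes 4.4% were called higher in gilt 803 and 0.281% lower, with a median difference of 0.11 log2. Of 16 granulosa markers tested 3 were called higher in it and 0 lower, with a median difference of 2.98 log2. Of 16 blood, immune and endothelial markers tested 3 were called higher and 0 lower, with 9 above 0, 7 below 0 and a median of 3.67 log2. The median over libraries of their summed level was 72.4 CPM in gilt 803 and 39.4, 122 and 45.4 CPM in gilts 201, 205 and 801. Of 14 theca and stroma markers tested 1 was called higher and 0 lower, with 7 above 0, 7 below 0 and a median of -0.04 log2. Their summed level had a median of 384 CPM in gilt 803 and 30.5, 57.4 and 81.8 CPM in gilts 201, 205 and 801. Of 16 oocyte genes tested 5 were called lower and 0 higher. The median mitochondrial share was 11.5% in gilt 803 and 83.9%, 85.3% and 67.6% in gilts 201, 205 and 801. With the mitochondrially encoded genes taken out, the differences of HAS2, GJA1, SERPINE2 and VCAN were 8.20, 5.20, 3.99 and 2.71 log2, and all 4 were called. With the 11 granulosa-rich libraries taken out, none of the 8 members tested was called in gilt 803, and 15 of 14825 genes were. The SERPINE2 difference was then 0.35 ± 0.98 log2 and that of VCAN 0.94 ± 0.76, whereas GJA1 was at 2.81 ± 0.84 (edgeR adjusted p = 0.3042, range over its 16 alternatives 7.317e-16 to 0.3042) and HAS2 at 6.04 ± 1.83 (adjusted p = 0.3144, range 2.531e-17 to 0.3144). This took 10 of the 20 oocytes of gilt 803 out of the fit. SERPINE2 and VCAN also lost their calls without gilt 205, without stage 2 and without stage 4, with adjusted p from edgeR of 0.07403 to 0.09113 for SERPINE2 and 0.06408 to 0.3598 for VCAN. What part transcripts of other cell types had in the 4 calls was not tested further.

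Within the same library, 6 of the 9 members had a negative rank correlation with ZP3 over the 55 oocytes. Spearman's rank correlation was -0.44 for HAS2, -0.44 for SERPINE2, -0.43 for VCAN and -0.41 for GJA1. It was -0.20 for PTGS2 and -0.09 for GJC1, and 0.02, 0.15 and 0.16 for TNFAIP6, PTX3 and GJA4. With GDF9, 5 members were negative, with rank correlations of -0.41 for HAS2, -0.38 for GJA1, -0.35 for SERPINE2, -0.29 for VCAN and -0.02 for PTGS2. GJA4 and PTX3, counted in few libraries, had rank correlations of 0.36 and 0.26 with GDF9. When CPM was taken without the mitochondrially encoded genes, these 2 values fell to 0.09 and 0.10. HAS2, GJA1, SERPINE2 and VCAN then stood at -0.42, -0.45, -0.46 and -0.36. In the CPM of all genes but without gilt 803, their rank correlations with GDF9 were -0.13, 0.02, 0.13 and 0.06 in the same order. All these points share the library total as divisor and come from 4 animals, so the coefficients are given as descriptions.

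For HAS2, VCAN, SERPINE2 and GJA1 the negative relation to ZP3 was smaller both without gilt 803 and without the granulosa-rich libraries. Most of those libraries are from that gilt. PTGS2, at -0.20 over all libraries, went the other way, with -0.25 without the granulosa-rich libraries and -0.29 without gilt 803. GJC1 moved from -0.09 to 0.09 and 0.04. Over the 44 libraries that were not granulosa-rich the rank correlation with ZP3 was -0.04 for GJA1, -0.11 for SERPINE2, -0.20 for HAS2 and -0.21 for VCAN. ZP3 is on the oocyte gene list that sets this class, so leaving these libraries out also takes out low ZP3 levels. A smaller coefficient is therefore partly built in. Without gilt 803, the rank correlation with ZP3 over the other 35 oocytes was 0.16 for GJA1, 0.01 for SERPINE2, -0.21 for VCAN and -0.25 for HAS2. Within single gilts GJA1 had rank correlations of 0.22 in gilt 201, 0.68 in gilt 205, -0.14 in gilt 801 and -0.19 in gilt 803. VCAN was negative within all 4 gilts, at -0.30, -0.33, -0.38 and -0.36, and HAS2 likewise at -0.14, -0.31, -0.47 and -0.14. HAS2 had counts in only 4 of 14, 4 of 9 and 2 of 12 libraries of gilts 201, 205 and 801, so most ranks there were ties at 0. With GDF9, HAS2 stood at -0.10, 0.22, -0.53 and -0.22 in gilts 201, 205, 801 and 803. SERPINE2 was positive in gilts 201 and 205 (0.26 and 0.40) and negative in gilts 801 and 803 (-0.36 and -0.32). Oocyte 4 of gilt 803 at stage 1 was high on both sides, with 265 CPM of HAS2, 4820 CPM of SERPINE2 and 1282 CPM of GJA1 beside 6873 CPM of ZP3.

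**Figure D4:**
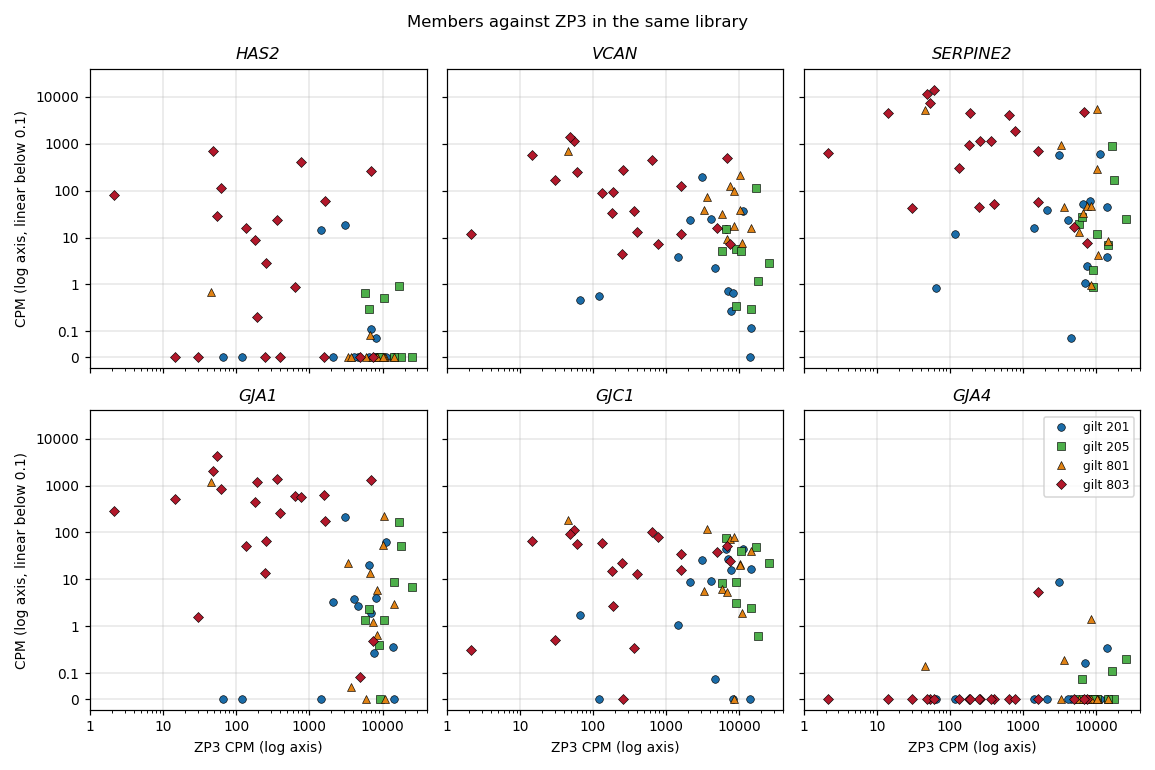
CPM of 6 members against CPM of ZP3 in the same library (log axes, vertical axis linear below 0.1), 55 oocytes, with colour and marker giving the gilt. The libraries low in ZP3 are mostly those of gilt 803, and they carry the top levels of HAS2, VCAN, SERPINE2 and GJA1, while GJC1 shows a rank correlation of -0.09.

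The members were also set against the markers of granulosa cells and the mitochondrial share. The rank correlation with the summed granulosa markers over the 55 libraries was 0.90 for SERPINE2, 0.80 for GJA1, 0.73 for VCAN, 0.50 for HAS2, 0.44 for GJC1 and 0.36 for PTGS2. It was 0.13 for PTX3, 0.13 for TNFAIP6 and 0.08 for GJA4. With the mitochondrial share, which enters the divisor of every CPM, it was -0.72 for SERPINE2, -0.65 for VCAN, -0.63 for GJA1, -0.55 for GJC1, -0.42 for PTGS2 and -0.39 for HAS2, and -0.20 to -0.12 for GJA4, TNFAIP6 and PTX3. The share of all genes with the same sign was not counted. Among themselves, SERPINE2 and GJA1 had the highest rank correlation at 0.85, followed by VCAN and SERPINE2 at 0.75. The pair of connexins GJA1 and GJC1 stood at 0.32, and at 0.06 when CPM was taken without the mitochondrially encoded genes, whereas SERPINE2 and GJA1 remained at 0.78.

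Among 6029 named genes with a mean of at least 10 CPM and counts in at least 28 libraries, those closest to each widely counted member were as follows. INHBA, a subunit of activin and inhibin A, was nearest to GJA1 with a rank correlation of 0.89, ahead of NUCKS1 (0.88) and APOA1 (0.87). GPX3, a secreted glutathione peroxidase, was nearest to SERPINE2 at 0.89, ahead of MIF (0.88) and ENO1 (0.87). SKIL, SLC38A2 and LAPTM4B were nearest to VCAN at 0.84, 0.82 and 0.82. For GJC1 the nearest were FKBP5, GCC2 and GATAD2A at 0.84, 0.83 and 0.83, and for PTGS2 they were PPM1B, GPATCH11 and SEPTIN11 at 0.69, 0.68 and 0.67. INHBA is on the granulosa marker list, and no gene appeared for 2 members.

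The wider pathways were read from lists of other genes. Of 40 other genes of cumulus expansion 38 were in the table and 33 were tested. None was called in any of the 3 stage comparisons, with a median trend of -0.10 log2 per stage. PTGES, the prostaglandin E synthase, stood at -3.81 ± 1.55 (SE) log2 for stage 5 against stage 1 with an edgeR adjusted p of 0.9037. Over all genes 4.4% were called higher in gilt 803 and 0.281% lower, with a median of 0.11 log2. In gilt 803, 5 of the 33 were called higher and 0 lower, with a median of 1.37 log2. Among them were PLAT, tissue plasminogen activator (6.25 ± 0.98 log2, edgeR adjusted p = 0.0004085), AREG, an EGF-like ligand (6.22 ± 1.81), FSHR, the FSH receptor (4.76 ± 1.23), and SMAD2, a mediator of activin signals (2.29 ± 0.56). FSHR is also 1 of the 3 granulosa markers called higher. PTGES was at 2.83 ± 1.01 (edgeR adjusted p = 0.1178).

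Of 23 other gap junction genes 19 were in the table and 10 were tested. No gene was called over stages. In gilt 803, 1 was called higher (4.4% of all genes) and 0 lower (0.281% of all genes), with a median of -0.13 log2. The called gene was GJA5, encoding connexin 40, at 3.55 ± 0.87 (SE) log2 with an edgeR adjusted p of 0.01549. TJP1, a scaffold protein of cell junctions, was at 0.48 ± 0.69, and PANX1, a pannexin, was at 0.47 ± 0.84.

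The list of genes of cGMP-mediated meiotic arrest and of the transzonal contacts between cumulus cells and oocyte had 16 genes, of which 15 were tested. None was called over stages. In gilt 803, 4 were called higher and 0 lower, with a median of 1.30 log2: GUCY1B1, a subunit of soluble guanylyl cyclase (6.09 ± 1.70), CDH2, N-cadherin (5.57 ± 0.96, edgeR adjusted p = 0.001056), FSCN1, the actin-bundling fascin (4.41 ± 1.16), and CTNNB1, beta-catenin (1.71 ± 0.48). DAAM1, a formin of actin filaments, was at 0.30 ± 0.48. Over all genes 4.4% were called higher in gilt 803 and 0.281% lower. Whether the calls of these 3 lists outlast the removal of the granulosa-rich libraries was not tested gene by gene. Nothing in the labels states whether counting used strand, so reads of a gene and of an antisense partner, such as the one known for HAS2 in human, cannot be told apart.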

How the data were processed

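Raw counts per Ensembl gene ID and oocyte were deposited by the authors. The tools HISAT2 2.1.0, StringTie 1.2.2, Trim Galore 0.4.3 and featureCounts are named, without roles, per the submitters' processing notes, and the genome build is not given in the sources used here. A deposited table of length-scaled values, named for TPM, had column sums of 40073.5 to 2990162.5 and was used only to order genes within a library (1 incomplete line was left out). Of 25880 IDs, 14857 had a symbol. CPM were computed from library totals. The 55 single libraries held 151104 to 38282850 counts. The oocytes that a gilt gave at a stage were pooled by adding counts, because the gilt is the animal. The 19 sums were tested in R 4.3.3 with edgeR 4.0.16 (TMM, filterByExpr by stage, quasi-likelihood F test, stage and gilt as terms, Benjamini-Hochberg over 15637 genes). Standard errors printed with edgeR's log2 changes are the size of the change divided by the square root of its F statistic. They are approximate, above all for genes with many zeros. TMM factors ran from 0.27 to 3.585, the common biological coefficient of variation was 1.236, and 11 residual degrees of freedom were left for the sums. DESeq2 1.42.0 (with limma 3.58.1 loaded by edgeR) was an alternative. The procedure was tested on simulated data. Same-gilt sums deviated together in part, with mean correlations of 0.012, 0.136, 0.141 and 0.133 for gilts 201, 205, 801 and 803 and -0.094 between gilts; the gilt is the same animal at every stage and was kept as a term. The members and lists were chosen with earlier results of these data known. Named genes were all members, ZP3, GDF9, the 4 most abundant and any called genes of each pathway list, and the 3 nearest genes by Spearman's rank correlation; some of these genes are not reported here. The lists covered oocyte, granulosa, theca and stroma, blood and immune, mitochondrial, expansion, gap junction and cGMP genes. Where a gilt had 1 oocyte at a stage, its sum is that library. No sequences or coordinates are shown.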

Additional observations from a re-analysis of the deposited data

Results flagged for a closer look

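Groups of 4 gilt sums (a member, ZP3 or GDF9 at one of stages 1 to 4) were compared with Dixon's 95% limit, leaving out groups whose highest sum had 3 counts or fewer. In 16 of 41 groups, each of a member, the highest gilt stood farther from the next one than the limit allows. Chance flags about 1 in 20 groups of normally distributed values, but CPM sums with many zeros are not normal, so 16 of 41 is no test against chance. Where the other 3 gilts were at 0, as for PTX3 at stage 4 and GJA4 at stages 3 and 4, the limit was passed by construction. Gilt 803 was the one apart in 10 of the 16. It stood apart for HAS2 at stages 1 to 4 with 98.8, 19.8, 332 and 111 CPM, for SERPINE2 at stages 2 and 4 with 5024 and 6398 CPM, and for GJA1 at the same stages with 2964 and 786 CPM. It also stood apart for VCAN at stage 2 with 820 CPM and for TNFAIP6 at stage 3 with 694 CPM. Gilt 201 was apart at stage 1 for PTGS2 with 8.31 CPM and for GJA4 with 2.93 CPM. Gilt 801 was apart for TNFAIP6 at stage 1 with 3.53 CPM, for PTX3 at stage 4 with 0.473 CPM and for GJA4 at stage 4 with 0.747 CPM. Gilt 205 was apart for GJA4 at stage 3 with 0.110 CPM. The last of these rests on a few counts.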

How the results depend on the processing

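No member was called for the trend or for stage 5 against stage 1 under the alternatives in which it could be tested (10 for GJA4, 11 for TNFAIP6, 12 for PTX3, 13 for the others), and the 4 calls in gilt 803 were kept by DESeq2, another scaling, no filter, no mitochondrial genes and single oocytes as libraries. The members called for any stage numbered 3 without a filter on low counts and 0 to 1 with 1 gilt left out. For any gilt they numbered 0 without the granulosa-rich libraries and 0 to 4 with 1 gilt or stage left out, and for gilt 803 they numbered 0 and 2 to 5. Members negative with GDF9 numbered 3 without the granulosa-rich libraries and 1 to 5 with 1 gilt left out. Without the gilt term (no replicate block) 0 members were called in the 3 stage comparisons, and TNFAIP6 turned to 1.39 (trend) and 0.47 (stage 5 against 1), GJC1 to 0.012 (trend), ZP3 to 0.0015 and 0.38, and GDF9 to 0.38 (stage 5 against 1). With each oocyte as a library HAS2 turned to 0.22 and 1.58, SERPINE2 to 0.16 (trend) and GJC1 to -0.32 (stage 5 against 1). GJC1 turned to 0.022 (trend) without a filter and to -0.21 (stage 5 against 1) with library totals not scaled by TMM, an alternative chosen after seeing the data. The latter moved the median of all genes to -1.16 for stage 5 against 1 and 1.17 for gilt 803. Without the granulosa-rich libraries GJC1 turned to 0.13 (trend) and -0.039 (gilt 803), PTGS2 to -0.44 (stage 5 against 1), and PTX3 to 1.19 and GJA4 to 0.26 in gilt 803. With 1 gilt left out, the trend ran from -1.38 to 0.48 for PTX3, -1.45 to 0.37 for TNFAIP6, -0.65 to 1.44 for PTGS2, -0.55 to 0.17 for SERPINE2 and -0.11 to 0.071 for GJC1. Stage 5 against 1 ran from -2.82 to 0.53 for HAS2, -6.02 to 2.22 for PTX3, -6.69 to 2.05 for TNFAIP6, -3.37 to 6.82 for PTGS2, -3.83 to 0.55 for SERPINE2, -0.13 to 0.73 for GJC1, -3.14 to 0.0082 for ZP3 and -2.07 to 0.30 for GDF9. With 1 gilt or stage left out, gilt 803 gave -2.53 to 8.04 for TNFAIP6 and -0.42 to 0.42 for GJC1. None of the reversed values was past the test, and the cause was not tested. Over all genes, edgeR called 2, 0, 0, 339 and 732 for the trend, any stage, stage 5 against 1, any gilt and gilt 803. DESeq2 called 161, 47, 365, 1006 and 2492, the last split into 1721 higher and 771 lower against 688 and 44. No filter gave 2, 216, 23, 935 and 1156, unscaled totals 2, 1, 0, 1327 and 2138 (2118 higher, 20 lower), single oocytes 0, 34, 0, 873 and 1399 (1080 higher, 319 lower), and no granulosa-rich libraries 0, 0, 0, 23 and 15. With 1 gilt or stage left out these counts ran from 0 to 2, 0 to 45, 0 to 1, 27 to 549 and 120 to 987. Simulated 4-fold differences of gilt 803, given to genes with a mean of at least 10 CPM, were found for 16% of genes and 16-fold ones for 79%.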

Other observations

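Markers of other cell types gave these values in the same tests, where 4.4% of all genes were called higher in gilt 803 and 0.281% lower. Of 14 theca and stroma markers tested, 1 was called higher in gilt 803 and 0 lower, with 0 called over stages. Of 16 blood, immune and endothelial markers tested, 3 were called higher in gilt 803, and 1 was called lower in the trend over stages. Of 13 mitochondrially encoded proteins, 6 were called lower in gilt 803 and 0 higher. Spearman's rank correlation with the summed theca and stroma markers over the 55 libraries was 0.74 for GJA1, 0.67 for SERPINE2, 0.56 for VCAN and 0.44 for HAS2. With the summed blood, immune and endothelial markers it was 0.41 for GJA4, 0.39 for GJC1, 0.32 for PTX3 and 0.10 for GJA1.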
